A study of Mus musculus with 22 samples.

Results

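The oxidative phosphorylation genes of the mouse hypothalamus were examined in 22 arrays from lean male C57BL/6J mice. Members were all probe sets with a single platform gene symbol that named a nuclear subunit of complex I (Nduf genes of the a, b, c, s and v series), complex II (Sdha to Sdhd), complex III (Uqcr genes and Cyc1), complex IV (Cox4 to Cox8 genes) or complex V (Atp5 genes). The rule found 115 of 23492 probe sets, for 90 of 18704 genes. By name, 36 of these genes fell to complex I, 4 to II, 9 to III, 16 to IV and 17 to V. The other 8 members, Ndufaf1 to Ndufaf7 and Cox7a2l, carry similar names but encode complex I assembly factors and a supercomplex factor, and are given as accessory members. The rule itself uses only gene names and no measured value. Ndufa4, since assigned to complex IV, was grouped by its name with complex I throughout.

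The respiratory chain sits in the inner mitochondrial membrane. Complexes I and II pass electrons from NADH and succinate to ubiquinone, complex III passes them to cytochrome c, and complex IV reduces oxygen with them, while complexes I, III and IV pump protons that drive ATP synthesis by complex V. Most subunits are encoded in the nucleus and a few in mitochondrial DNA, so their production is coordinated, and neurons depend on the pathway for most of their ATP.

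Celastrol is a triterpenoid of the thunder god vine, and dimethyl sulfoxide (DMSO) was its vehicle. Both were given by intraperitoneal injection to mice of 8 weeks of age fed normal chow for 2 weeks. Injections covered 6 h, 1 day or 4 days. The celastrol group of 6 h had 4 arrays, those of the later times 3 each, and every DMSO group 4. A dose of 250 µg per kg stands in the labels next to the 6 h celastrol treatment, while only an injected volume (100 µl, with DMSO at 25 µl per day) stands next to the later ones, so their dose cannot be read from them. The labels call the arrays biological replicates and do not say whether 1 array is 1 animal.

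Values are deposited log2 intensities, and array medians lay between 8.58 and 8.66. Levels of different genes were not set against each other, since probes differ in brightness. Tests covered the 9880 genes that exceeded the array median on 3 or more arrays. Neuronal markers (10 of 10 listed) and hypothalamic markers (11 of 12) passed this filter, and so did 4 of 8 pituitary markers, whose median deviation from their own means reached 1.92 in 1 DMSO array of 6 h and 1.39 in 1 celastrol array of 4 days. In bulk tissue, fewer cells of a type and less RNA per cell cannot be told apart.

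Of the 90 members 82 were tested. They comprised 34 of complex I, all 4 of complex II, all 9 of complex III, 11 of complex IV, all 17 of complex V and 7 accessory members. The 8 dim members were Ndufa1, Ndufaf6 and 6 genes that are mostly tissue-restricted isoforms, namely Cox4i2 (a lung-enriched form of subunit 4), Cox6b2, Cox7b2, Cox8b (the heart and muscle form of subunit 8), Cox8c and Ndufa4l2. Cox4i2 read 7.94 to 8.31 over the 22 arrays, Cox8b 6.77 to 7.28 and Ndufa4l2 7.26 to 7.84, each below the array's median in every array. Their partner genes Cox4i1, Cox8a and Ndufa4 stood above the median in every array. Among the muscle isoforms that were tested, Cox6a2 ranged from 8.79 to 9.38 and Cox7a1 from 8.42 to 8.78, the second above the array median in 12 arrays.

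Promoters are shown for 3 members whose values recur below. Nuclear respiratory factor 1 (NRF1), the ETS factor GABPA and YY1 are known regulators of nuclear genes of the respiratory chain. A promoter, taken as 250 bases before to 50 after the gene's start in RefSeq (GRCm38.p6), was matched for 73 of the 90 members. For genes with several starts in the table (5 of these members) the first listed was used. The letters GCATGCGC (NRF1), CCGGAAGT (ETS) and AAGATGGCG (YY1) were searched on both strands. Among the 69 tested members with a promoter, 12 (17.4%) held the NRF1 letters, 5 (7.25%) the ETS letters and 6 (8.7%) the YY1 letters. Over the 8035 promoters of all genes tested these shares were 5.84%, 8.24% and 3.37%. With any listed start counted, the members' shares were 17.4%, 7.25% and 10.1%, beside 6.32%, 8.85% and 3.68% of all genes tested. With the first start over all 27025 promoters the shares were 2.8%, 4% and 1.49%. A match is a description of the letters, not a binding site. In the sequences below capitals mark the letters found, on either strand. The promoter of Uqcrh, the hinge protein of complex III, lay at chr4:116075021-116075320 on the minus strand and held the ETS letters. That of Uqcr11, a small complex III subunit, lay at chr10:80406772-80407071 on the minus strand and held ETS and NRF1 letters. That of Ndufa6, a complex I accessory subunit, lay at chr15:82354242-82354541 on the minus strand and held the NRF1 letters.
Uqcrh: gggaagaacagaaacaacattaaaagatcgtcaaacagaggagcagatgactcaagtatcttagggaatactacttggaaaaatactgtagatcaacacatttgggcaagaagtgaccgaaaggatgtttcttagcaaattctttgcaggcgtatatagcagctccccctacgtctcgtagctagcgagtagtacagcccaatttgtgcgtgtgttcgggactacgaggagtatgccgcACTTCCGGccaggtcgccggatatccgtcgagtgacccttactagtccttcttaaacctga
Uqcr11: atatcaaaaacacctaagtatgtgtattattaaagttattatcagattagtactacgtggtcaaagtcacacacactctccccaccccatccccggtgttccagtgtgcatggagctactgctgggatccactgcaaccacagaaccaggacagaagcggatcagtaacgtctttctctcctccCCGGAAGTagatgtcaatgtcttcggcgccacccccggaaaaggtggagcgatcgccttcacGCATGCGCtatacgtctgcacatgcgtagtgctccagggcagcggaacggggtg
Ndufa6: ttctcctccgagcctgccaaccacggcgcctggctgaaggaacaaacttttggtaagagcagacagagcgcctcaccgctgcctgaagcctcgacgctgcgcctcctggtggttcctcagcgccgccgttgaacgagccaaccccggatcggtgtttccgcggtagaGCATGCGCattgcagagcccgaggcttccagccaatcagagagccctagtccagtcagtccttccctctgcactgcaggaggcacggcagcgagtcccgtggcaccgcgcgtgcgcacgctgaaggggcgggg

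Celastrol was compared with DMSO at each time, to see whether the treatment shifted these genes. No member passed the test at any of the 3 times. Differences were small throughout, and between 68 and 72 of the 82 members lay within 0.1 of 0 on the log2 scale at each time. The test was limma's moderated test with a Benjamini-Hochberg adjustment over all 9880 genes, called at an adjusted p under 0.05. Of all genes this threshold called 0% at 6 h, 0% at 1 day and 0.0506% at 4 days.

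**Figure D1:**
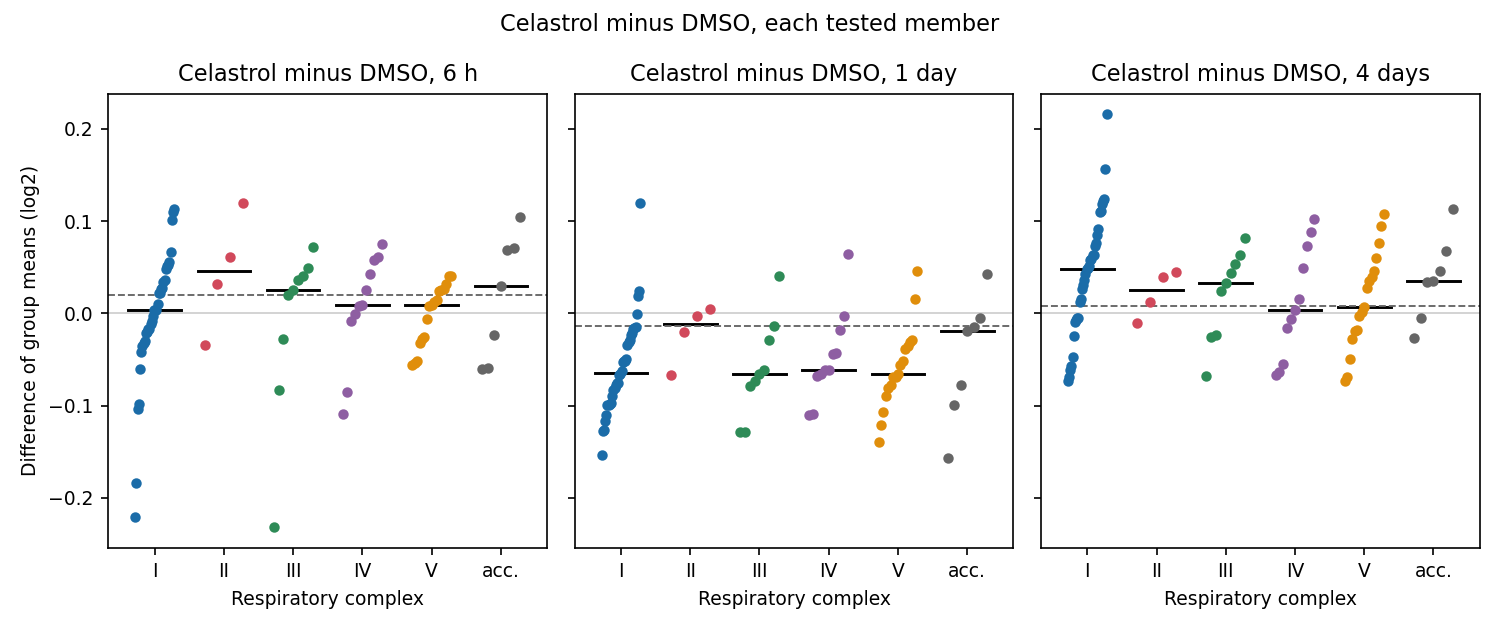
Celastrol minus DMSO at 6 h, 1 day and 4 days (log2 difference of group means, y axis) for each of the 82 tested members, by complex (x axis; acc., accessory members). Black bars are medians per complex and dashed lines the median of all 9880 genes tested; at 1 day 73 of 82 points lie below 0.

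At 6 h the members had a median difference of 0.01, against 0.02 over all genes tested, and 34 of 82 (all genes, 34.6%) were below 0. At an unadjusted p under 0.05 stood 1 member (all genes, 5.11%). The groups did not overlap in 1 member on the lower side (all genes, 0.506%) and 1 on the higher side (all genes, 2.26%). The complex medians lay between 0.00 in complex I and 0.05 in complex II. Sdhd, a membrane anchor of complex II, read 10.14, 10.11, 10.16 and 10.24 in celastrol arrays, against 10.07, 10.01, 10.08 and 10.01 in DMSO arrays. All 4 celastrol values were above all 4 DMSO values, with a difference of 0.12 ± 0.07 (SE) and a limma adjusted p of 0.895. Of the marker lists, the mean level of the microglial one did not overlap at 6 h (9.59 to 9.66 in celastrol arrays, against 9.52 to 9.58 in DMSO arrays). Its median deviations from the genes' own means overlapped. For the neuronal list the mean levels overlapped, but the median deviations did not (0.003 to 0.052 in celastrol arrays, against -0.024 to -0.002 in DMSO arrays). The part of these lists was not tested.

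Uqcr11 was the lowest at 6 h. It read 10.41, 10.46, 10.26 and 10.37 in celastrol arrays, against 10.37, 10.61, 10.73 and 10.71 in DMSO arrays. A single DMSO array lay among the celastrol values and 3 lay above them. The difference was -0.23 ± 0.09 (SE; limma adjusted p = 0.895, exact permutation p = 0.0857, two-sided). Its second probe set gave -0.10. Ndufa13 (GRIM-19) and Ndufa11, both complex I accessory subunits, differed by -0.10 ± 0.05 and -0.18 ± 0.09 (SE, limma adjusted p = 0.895 each). In both genes 1 DMSO array stood apart: Ndufa13 read 10.78 in DMSO replicate 1 and 10.95 to 10.96 in the others, and Ndufa11 read 12.08 in DMSO replicate 2 and 11.60 to 11.68 in the others. Without DMSO replicate 2 the Ndufa11 difference was -0.07, and without DMSO replicate 1 the Ndufa13 difference was -0.15.

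At 1 day most members were slightly lower in celastrol arrays. The median difference was -0.06, against -0.01 over all genes, and 73 of 82 members (all genes, 58.8%) were below 0. By complex, 31 of 34 complex I members (median -0.06), 8 of 9 of complex III (-0.07), 10 of 11 of complex IV (-0.06) and 15 of 17 of complex V (-0.07) were below 0. In complex II 3 of 4 were below 0 (median -0.01), and 6 of 7 of the accessory members (median -0.02). Differences between complexes were not tested. At an unadjusted p under 0.05, 9 members were lower (all genes, 5.03%) and 0 higher (all genes, 1.63%), and the lowest adjusted p was 0.698. The groups did not overlap in 8 members, all lower in celastrol arrays (all genes, 4.36% lower and 1.81% higher).

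The members lowest by p at 1 day were Ndufaf1, Atp5pb and Ndufa4. Ndufaf1, a complex I assembly factor, read 9.34, 9.23 and 9.35 in celastrol arrays, against 9.60, 9.40, 9.41 and 9.44 in DMSO arrays. The groups did not overlap, with a difference of -0.16 ± 0.05 (SE; limma adjusted p = 0.698, exact permutation p = 0.0286, two-sided, the smallest that 3 against 4 arrays can give). Atp5pb, subunit b of the peripheral stalk of ATP synthase, read 11.41, 11.18 and 11.35 in celastrol arrays, against 11.51, 11.36, 11.46 and 11.49 in DMSO arrays. These groups overlapped, the difference was -0.14 ± 0.05 (SE, limma adjusted p = 0.698), and the gene's second probe set gave -0.04. Ndufa4, named for complex I and since assigned to complex IV, read 10.26, 10.32 and 10.29 in celastrol arrays, against 10.53, 10.33, 10.39 and 10.41 in DMSO arrays. All 3 celastrol values were below all 4 DMSO values, and the difference was -0.13 ± 0.05 (SE, limma adjusted p = 0.698).

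The shift at 1 day rested in part on 1 array. In DMSO 1 day replicate 1 the members' median deviation from their own means over all arrays was 0.11, while the median over all genes was 0.00. It was the highest of the 4 DMSO 1 day arrays for 57 of 82 members (69.5%, beside 33.1% of all genes). For 34 members (41.46%, beside 13.95% of all genes) it was the highest of all 22 arrays. By complex its deviation was 0.12 in I, 0.16 in II, 0.15 in III, 0.13 in IV and 0.09 in V, and 0.00 in the accessory members. Over the other 3 DMSO 1 day arrays the members' median deviations lay between -0.01 and 0.03. Without this array the median difference at 1 day was -0.03 and 63 of 82 members were below 0, beside -0.02 and 61.5% over all genes. At an unadjusted p under 0.05, 3 members were then lower (all genes, 4.11%). By complex 29 of 34 members of I (median -0.03), 8 of 9 of III (-0.01), 7 of 11 of IV (-0.03) and 12 of 17 of V (-0.04) were then below 0. Complex II then lay above 0, with a median of 0.02 and 1 of 4 below 0. Next, this array and celastrol 1 day replicate 2 were left out, the pair that resembled their groups least. The members' median was then -0.02 with 54 of 82 below 0, beside -0.01 and 54.9% over all genes. Only 1 member was lower at an unadjusted p under 0.05 (all genes, 1.73%). The 3 celastrol 1 day arrays had median deviations of -0.01, -0.03 and -0.02, a narrow range among the 22 arrays.

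**Figure D2:**
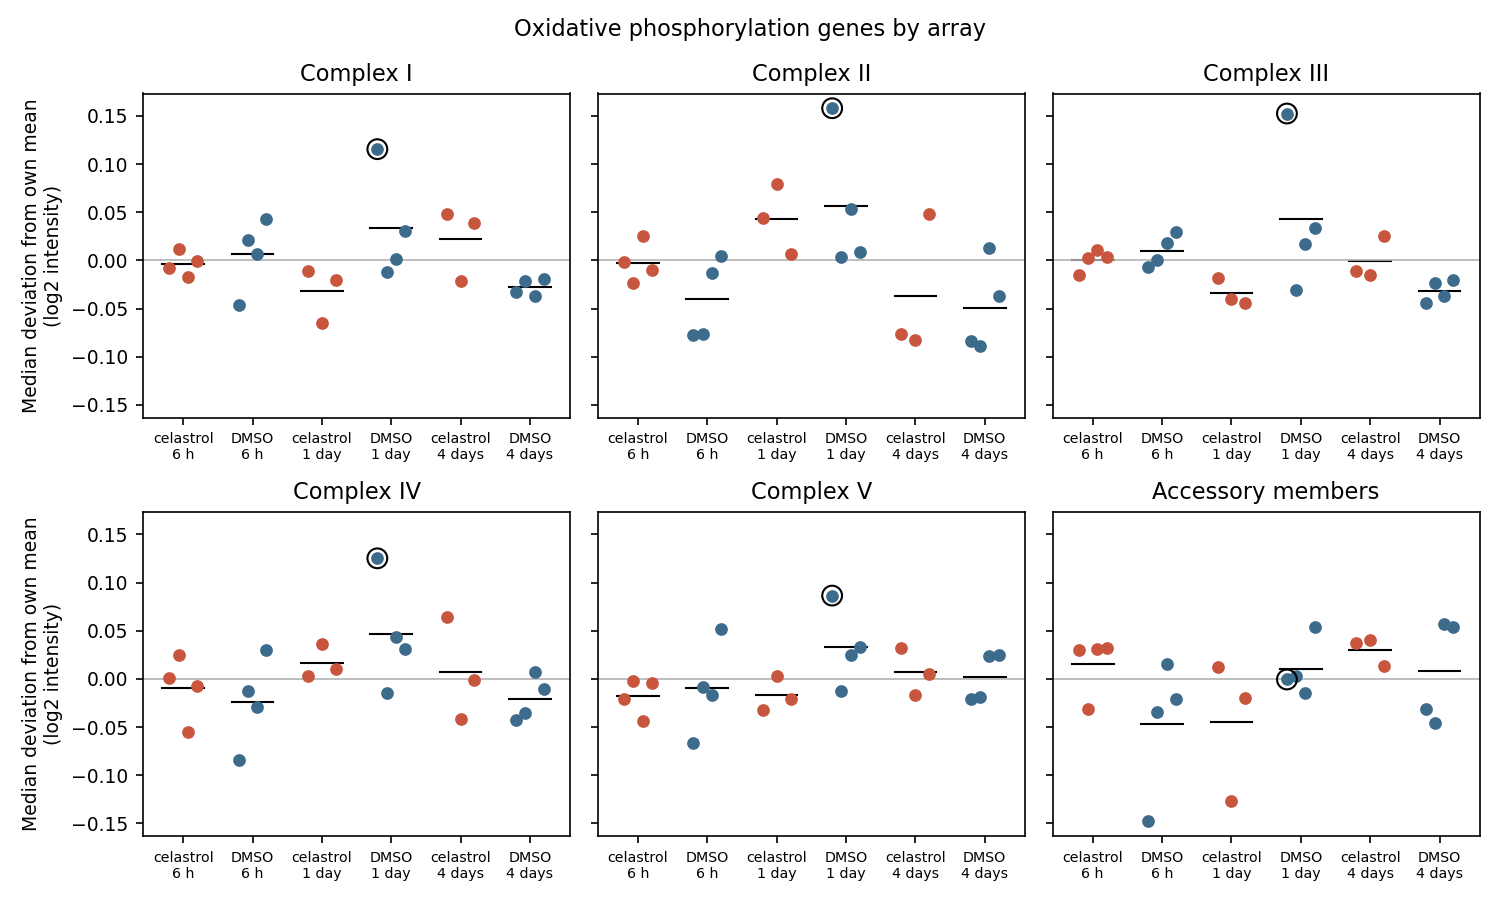
Median deviation of the tested members of each complex from their own means over 22 arrays (log2, y axis), 1 point per array, by group (x axis; celastrol red, DMSO blue, bars are group means). The ringed point is DMSO 1 day replicate 1, at 0.12 in complex I, 0.16 in complex II and 0.15 in complex III.

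Other mitochondrial and growth-related lists were also low at 1 day, and none of their members passed the test. Below 0 were 14 of 14 citric acid cycle genes (median -0.04), 33 of 35 assembly and import factors (-0.05), 52 of 68 mitochondrial ribosome genes (-0.04), 13 of 17 genes of electron carriers and adenine nucleotide transport (-0.05), all 6 genes of uncoupling and oxidant defence (-0.04) and 44 of 54 cytosolic ribosomal protein genes (-0.04). Regulators of mitochondrial biogenesis (8 of 15 below 0) had a median of -0.01 and glycolytic genes (10 of 13) one of -0.03. Of the cell type markers, 8 of 10 neuronal (median 0.00), 3 of 10 astrocyte (0.03), 2 of 9 oligodendrocyte (0.02), 3 of 6 microglial (0.00) and 6 of 8 endothelial genes (-0.06) were below 0. The mean log2 level of the endothelial list was 9.31 to 9.41 in celastrol arrays, against 9.38 to 9.49 in DMSO arrays, and that of the neuronal list 12.35 in all 3 celastrol arrays, against 12.31 to 12.38 in DMSO arrays. That of the astrocyte list did not overlap, at 11.36 to 11.39 in celastrol arrays, against 11.32 to 11.34 in DMSO arrays. Nor did those of the citric acid cycle, assembly and import, and uncoupling and oxidant defence lists, each lower in celastrol arrays. Their part in the members' shift was not tested.

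At 4 days the members' median was 0.03, against 0.01 over all genes, and 28 of 82 (all genes, 43.6%) were below 0. The median was 0.05 in complex I (10 of 34 below 0) and 0.00 in complex IV (5 of 11). At an unadjusted p under 0.05 stood 2 members, both higher (all genes, 2.55%). Ndufa6 read 10.51, 10.49 and 10.73 in celastrol arrays, against 10.36, 10.36, 10.40 and 10.33 in DMSO arrays. All 3 celastrol values lay above all 4 DMSO values, with a difference of 0.22 ± 0.08 (SE; limma adjusted p = 1.00, exact permutation p = 0.0286, two-sided). Ndufa4 read 10.40, 10.40 and 10.38 in celastrol arrays, against 10.26, 10.21, 10.35 and 10.29 in DMSO arrays. Again the groups did not overlap, and the difference was 0.12 ± 0.05 (SE, limma adjusted p = 1.00). Microglial markers were higher beside this (6 of 6 above 0, median 0.15), with a mean log2 level of 9.69 to 9.77 in celastrol arrays, against 9.52 to 9.64 in DMSO arrays. Endothelial markers (6 of 8 above 0, median 0.08) had a mean level of 9.47 to 9.50 in celastrol arrays, against 9.39 to 9.48 in DMSO arrays, and their median deviations from the genes' own means did not overlap (0.08 to 0.11 in celastrol arrays, against -0.03 to 0.05 in DMSO arrays). The mean level of the cytosolic ribosomal protein genes (41 of 54 above 0, median 0.05) was 11.47 to 11.52 in celastrol arrays, against 11.44 to 11.46 in DMSO arrays, and that of the biogenesis regulators (8 of 15 above 0) 9.505 to 9.512 in celastrol arrays, against 9.458 to 9.499 in DMSO arrays, both without overlap. The part of these lists in the members' values was not tested.

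The direction of some members differed between times. Celastrol minus DMSO in Ndufa4 was 0.05 at 6 h, -0.13 at 1 day and 0.12 after 4 days. The difference of its celastrol effects, 4 days minus 1 day, was 0.24 ± 0.07 (SE, limma adjusted p = 0.754). Ndufa6 had the largest such difference, 0.34 ± 0.11 (SE, limma adjusted p = 0.754). For 4 days minus 1 day 70 of 82 members (all genes, 60.0%) were above 0, and for 1 day minus 6 h 67 of 82 (all genes, 66.3%) were below 0. Both use the same 1 day arrays. None passed in any of the 3 tests of a difference between times, in which 0% of all genes passed. Unadjusted, 8 members passed for 4 days minus 1 day (all genes, 6.00%), 9 for 1 day minus 6 h (all genes, 8.27%) and 1 for 4 days minus 6 h (all genes, 3.38%).

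Averaged over the 3 times, the celastrol effect on all 82 members lay within 0.1 of 0, with a median of -0.01 (all genes, 0.00) and 49 of 82 (all genes, 43.7%) below 0. No member passed (all genes, 0.0607%), and 2 had an unadjusted p under 0.05 (all genes, 4.00%). These were Ndufc1, a small complex I subunit (-0.08 ± 0.03), and Cox7a1, the heart and muscle isoform of complex IV subunit 7a (-0.09 ± 0.04; SE, limma adjusted p = 1.00 each). The 95% interval of this average lay within 0.25 of 0 for 81 of 82 members. At single times that held for 74 members at 6 h, 68 at 1 day and 71 at 4 days, and the intervals typically reached 0.11 to 0.12 to either side.

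The vehicle arrays were then compared between times, since a shift with time in DMSO mice enters each celastrol comparison. These comparisons and the preceding ones share the DMSO arrays. Uqcrh, whose product bridges cytochrome c1 and cytochrome c in complex III, was the only member to pass in any of the comparisons between 2 groups, and fell at 4 days. In DMSO arrays it read 11.94, 12.11, 11.91 and 11.94 at 6 h, 11.97, 11.82, 11.89 and 11.84 at 1 day, and 11.73, 11.78, 11.68 and 11.70 at 4 days. The 4 values at 4 days were below all values at 6 h and at 1 day. The means were 11.72 ± 0.04 at 4 days and 11.98 ± 0.09 at 6 h (SD, n = 4 each), a log2 difference of -0.25 ± 0.05 (SE), or 0.838-fold, with a limma adjusted p of 0.0433 and an exact permutation p of 0.0286 (two-sided, the smallest that 4 against 4 arrays can give). Over all genes 0.253% passed in this comparison. The call was near the threshold and was lost without 7 of the 8 arrays compared, left out singly, with differences between -0.28 and -0.21.

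Uqcrh in celastrol arrays read 12.01, 11.80, 11.88 and 11.88 at 6 h, 11.83, 11.88 and 11.74 at 1 day, and 11.88, 11.78 and 11.76 at 4 days. The groups of 4 days and 6 h overlapped there. Celastrol minus DMSO in Uqcrh was within 0.1 of 0 at each time. The promoter of Uqcrh printed above holds ETS letters shortly before the gene's start, and a link to these values was not tested.

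**Figure D3:**
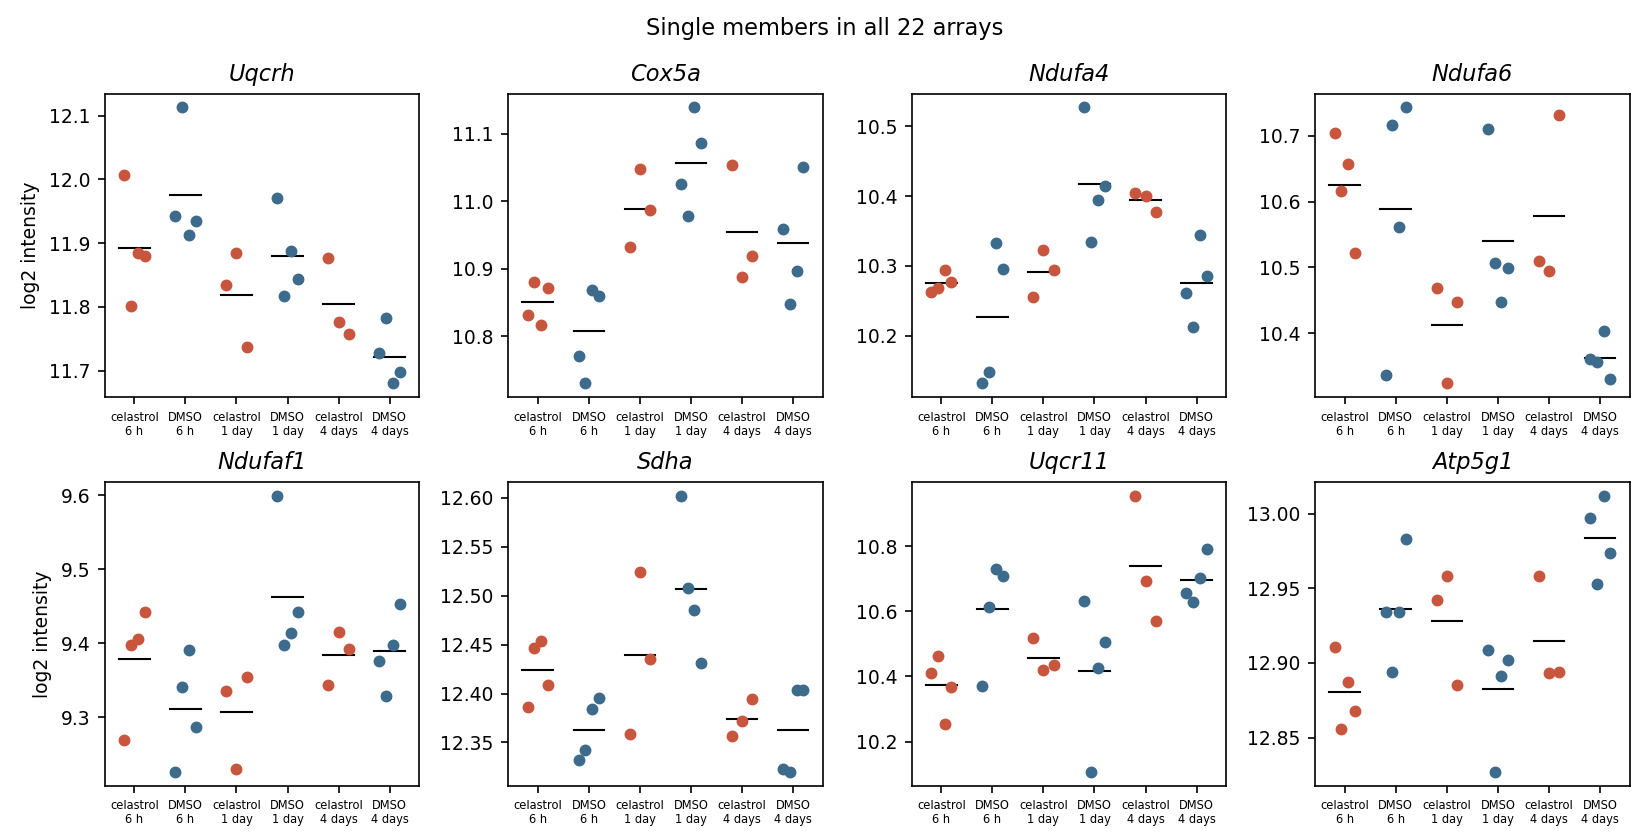
Log2 intensity (y axis, a separate scale per gene) of 8 members in the 22 arrays by group (x axis; celastrol red, DMSO blue, bars are group means). In Uqcrh the DMSO points at 4 days lie at 11.68 to 11.78, below the DMSO points at 6 h at 11.91 to 12.11.

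Between 4 days and 6 h the members were split in direction in the DMSO arrays, while most of all genes tested were higher. The median was 0.00, against 0.03 over all genes, and 42 of 82 (all genes, 33.9%) were below 0. Unadjusted, 7 members were lower (all genes, 3.77%) and 3 higher (all genes, 11.5%). The groups did not overlap in 5 members on the lower side (all genes, 2.05%) and 3 on the higher side (all genes, 5.51%). Those lower at an unadjusted p under 0.05 included Ndufa6 (-0.23 ± 0.07), Ndufa11 (-0.24 ± 0.09), Sdhc (-0.11 ± 0.04), a membrane anchor of complex II, and Atp5h (-0.12 ± 0.05), subunit d of the stalk of ATP synthase (SE; limma adjusted p 0.183 to 0.265). Those higher at that p were Ndufaf3 (0.18 ± 0.05), Cox5a (0.13 ± 0.05) and Atp5g3 (0.11 ± 0.05; limma adjusted p 0.163 to 0.275). Of the members just named, only Sdhc and Ndufaf3 had groups that did not overlap. Pituitary markers were lower at 4 days than at 6 h in the same arrays (4 of 4 tested, median -0.84). Their mean log2 level ranged from 7.85 to 8.82 at 4 days and from 7.94 to 10.5 at 6 h. Oligodendrocyte markers were higher (8 of 9, median 0.08), with a mean level of 11.23 to 11.32 at 4 days, against 11.12 to 11.21 at 6 h, without overlap. Immediate early genes, listed for RNA quality and dissociation (5 tested), also had higher mean levels without overlap. These were 10.003 to 10.049 at 4 days, against 9.942 to 9.997 at 6 h, while their median deviations overlapped. Neuronal markers were also higher (8 of 10, median 0.03), and while their mean levels overlapped, their median deviations did not (0.01 to 0.03 at 4 days, against -0.02 to 0.00 at 6 h). The part of these lists was not tested.

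For DMSO at 1 day against 6 h the members lay near the background in median and direction. On the higher side their count at an unadjusted p under 0.05 exceeded it. Their median was 0.04, against 0.03 over all genes, and 57 of 82 (all genes, 64.4%) were above 0. No member passed (all genes, 0%). Unadjusted, 21 were higher (all genes, 11.6%) and 2 lower (all genes, 2.44%). The groups did not overlap in 5 members on the higher side (all genes, 4.99%) and 3 on the lower side (all genes, 0.992%). Without DMSO 1 day replicate 1 the median was 0.02 (all genes, 0.03) and 52 of 82 members were above 0 (all genes, 68.4%). At an unadjusted p under 0.05 then stood 14 members in either direction (all genes, 10.4%), 3 of them lower (all genes, 1.53%). By complex, with all arrays, 21 of 34 members of I, all 4 of II, 6 of 9 of III, 8 of 11 of IV, 14 of 17 of V and 4 of 7 accessory members were above 0. Mean levels of glycolytic genes were higher at 1 day without overlap (12.34 to 12.43, against 12.27 to 12.33). So were those of astrocyte markers (11.320 to 11.339, against 11.248 to 11.317) and of the electron carrier and the uncoupling and oxidant defence lists. Those of the neuronal and citric acid cycle lists overlapped. The part of these lists was not tested.

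Cox5a, a nuclear subunit of cytochrome c oxidase, came closest to the threshold. It read 11.03, 10.98, 11.14 and 11.09 at 1 day, against 10.77, 10.73, 10.87 and 10.86 at 6 h. Every 1 day value was above every 6 h value. The means were 11.06 ± 0.07 at 1 day and 10.81 ± 0.07 at 6 h (SD, n = 4 each), a difference of 0.25 ± 0.05 (SE; limma adjusted p = 0.0593). In the celastrol arrays Cox5a likewise read higher at 1 day (10.93, 11.05 and 10.99) than at 6 h (10.83, 10.88, 10.82 and 10.87).

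Ndufa4 read 10.53, 10.33, 10.39 and 10.41 in DMSO arrays at 1 day, against 10.13, 10.15, 10.33 and 10.30 at 6 h. The groups met without overlapping, with a difference of 0.19 ± 0.05 (SE, limma adjusted p = 0.0985). Ndufaf3, a complex I assembly factor, read 11.10, 10.84, 10.85 and 11.01 at 1 day, against 10.62, 10.70, 10.84 and 10.77 at 6 h, a difference of 0.22 ± 0.05 (SE, limma adjusted p = 0.104). These overlapped slightly. Without DMSO 6 h replicate 3, which was the highest 6 h array in Cox5a, Ndufa4 and Ndufaf3, 4 members passed, these 3 and Ndufa9 (all genes, 0.466%). The lowest difference was that of Ndufb2, a small complex I subunit (-0.32 ± 0.12 SE, limma adjusted p = 0.244), which also had the widest spread within groups of all tested members (residual SD 0.20).

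At 4 days most members stood slightly below their 1 day values in the DMSO arrays. The members' median was -0.05, against 0.00 over all genes, and 62 of 82 (all genes, 50.8%) were below 0. No member passed (all genes, 0.152%). Unadjusted, 20 were lower (all genes, 7.00%) and 3 higher (all genes, 7.65%), and 14 did not overlap on the lower side (all genes, 5.07%) and 2 on the higher side (all genes, 4.73%). Below 0 were all 4 of complex II (median -0.14), 8 of 9 of complex III (-0.07), 8 of 11 of complex IV (-0.08), 26 of 34 of complex I (-0.06) and 11 of 17 of complex V (-0.05). Without DMSO 1 day replicate 1 the median was -0.04 (all genes, 0.00) and 54 of 82 members were below 0 (all genes, 51.5%). Then 8 were lower at an unadjusted p under 0.05 (all genes, 4.94%). Mean levels of citric acid cycle genes were also lower without overlap (11.2235 to 11.2563, against 11.2566 to 11.3467 at 1 day). So were those of glycolytic genes (12.2789 to 12.3362, against 12.3365 to 12.4304). Median deviations of both lists overlapped. Those of the assembly and import, mitochondrial ribosome, electron carrier, and uncoupling and oxidant defence lists were lower without overlap, while the mean levels of these lists overlapped. The part of these lists was not tested.

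**Figure D4:**
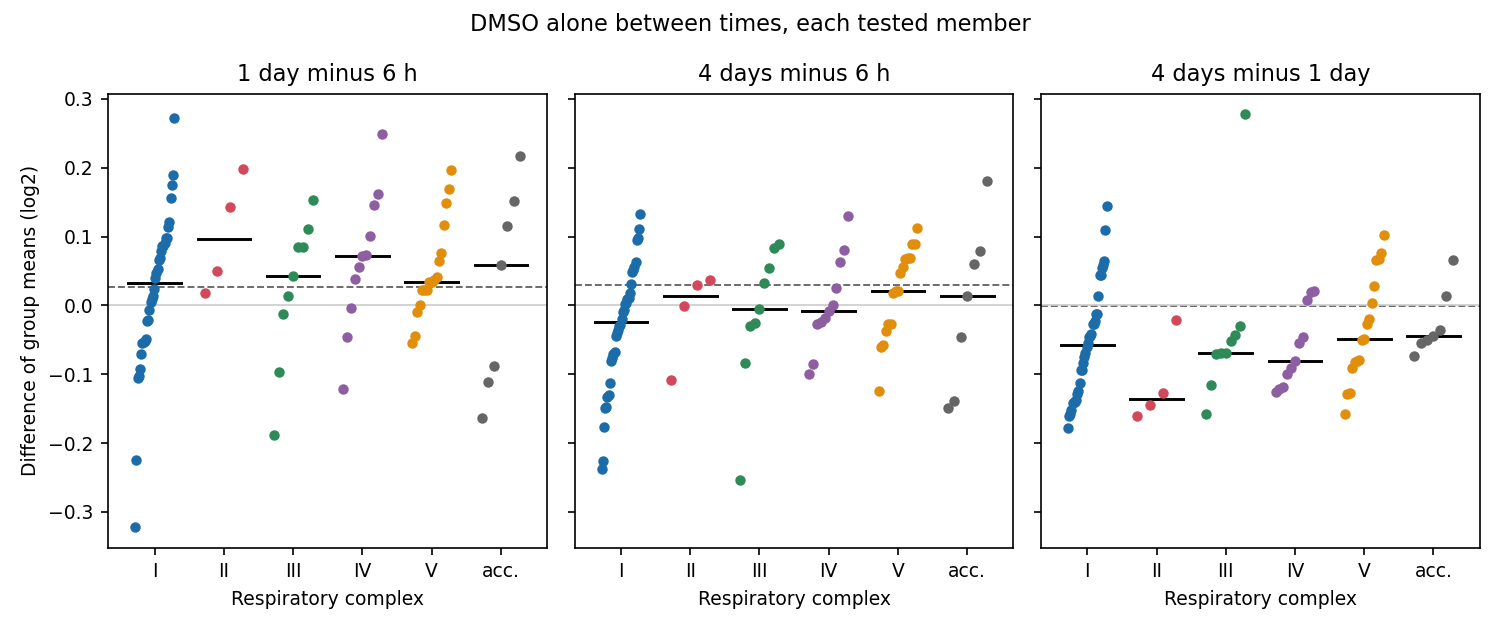
DMSO arrays between times (log2 difference of group means, y axis) for each of the 82 tested members, by complex (x axis; acc., accessory members), with medians as black bars and the median of all genes tested as a dashed line. Complex II has the lowest median, -0.14, at 4 days minus 1 day.

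Ndufs3, a core subunit of the peripheral arm of complex I, read 11.27, 11.21, 11.28 and 11.29 at 4 days, against 11.52, 11.35, 11.45 and 11.38 at 1 day. The groups did not overlap, and the difference was -0.16 ± 0.04 (SE, limma adjusted p = 0.105), with -0.17 from its second probe set. Sdha, the flavoprotein of complex II, which also serves the citric acid cycle, read 12.32, 12.32, 12.40 and 12.40 at 4 days, against 12.60, 12.51, 12.48 and 12.43 at 1 day. Here too every value at 4 days was lower, with a difference of -0.14 ± 0.04 (SE, limma adjusted p = 0.130). Uqcrh differed by -0.16 ± 0.05 (SE, limma adjusted p = 0.179). In the other direction Uqcr11 was 0.28 ± 0.09 (limma adjusted p = 0.182), with 0.33 from its second probe set, and Atp5g1 was 0.10 ± 0.03 (limma adjusted p = 0.179).

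The 3 genes for subunit c of ATP synthase, the rotating ring, encode the same mature protein, and their differences varied in sign. Between 4 days and 1 day in DMSO arrays Atp5g1 was 0.10, Atp5g2 -0.03 and Atp5g3 0.08. For celastrol minus DMSO at 4 days they were -0.07, 0.04 and 0.05. None passed in any comparison, and differences between the 3 genes were not tested. Atp5g1 had one of the narrowest spreads, reading 12.83 to 13.01 over all 22 arrays.

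None of the 4 subunits of complex II passed in any comparison between 2 groups. Sdhb, the iron-sulphur subunit, read 10.89 to 11.19 over the 22 arrays, and none of its 6 comparisons exceeded 0.05. Sdhc read 11.27, 11.22, 11.33 and 11.28 in DMSO arrays at 4 days, below all 4 at 1 day (11.43, 11.39, 11.38 and 11.40), a difference of -0.13 ± 0.04 (SE, limma adjusted p = 0.195). Sdhd reached 10.49 in DMSO 1 day replicate 1, its highest value in any array, against 10.09 to 10.23 in the other arrays of that group. Cyc1, cytochrome c1 of complex III, was the most even of the named members in these comparisons, with differences between -0.04 and 0.02.

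Among the paired isoforms of complex IV, Cox4i1 read 11.32, 11.29 and 11.23 in celastrol arrays at 4 days, against 11.11, 11.19, 11.23 and 11.18 in DMSO arrays, a difference of 0.10 ± 0.06 (SE, limma adjusted p = 1.00). Cox6a1, the widely expressed form of subunit 6a, was 0.09 ± 0.06 at that comparison and its groups did not overlap. Cox7a2 and Cox8a were -0.02 and 0.05. The muscle form Cox6a2 spread widely within groups (8.80 to 9.33 among the 4 DMSO arrays at 6 h), and its largest difference was -0.12 ± 0.11 (SE), for DMSO at 1 day against 6 h.

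Over all 6 groups a moderated F test passed 0 of 82 members and 1.00% of all genes, and 16 members (all genes, 18.3%) had an unadjusted p under 0.05. The lowest adjusted p belonged to Cox5a (0.0558), Ndufaf3 (0.0614) and Uqcrh (0.0804). Ndufs1, the largest complex I subunit, was highest in celastrol arrays at 4 days (10.83, 10.81 and 10.78, against 10.69, 10.67, 10.68 and 10.74 in DMSO arrays), a difference of 0.11 ± 0.06 (SE, limma adjusted p = 1.00). Uqcrc1, a core protein of complex III, was lower there (11.73, 11.71 and 11.75 in celastrol arrays, against 11.82, 11.79, 11.79 and 11.80 in DMSO arrays), by a difference of -0.07 ± 0.06 (SE, limma adjusted p = 1.00). In both, the groups did not overlap, as in 6 members on the higher side (all genes, 4.27%) and 1 on the lower side (all genes, 2.05%) at 4 days.

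Within the celastrol arrays alone, 0 members passed at 1 day against 6 h (all genes, 0.0202%), 0 at 4 days against 6 h (all genes, 1.53%) and 0 at 4 days against 1 day (all genes, 0%). Unadjusted, 3 members stood under 0.05 in the first (all genes, 7.37%), 14 in the second (all genes, 18.0%) and 7 in the third (all genes, 10.9%). Closest were Ndufaf3 (0.22 ± 0.06), Uqcr11 (0.36 ± 0.10) and Atp5g3 (0.19 ± 0.05) at 4 days against 6 h (SE; limma adjusted p 0.0587 to 0.0685). Uqcr11 read 10.96, 10.69 and 10.57 at 4 days, all above its 6 h values.

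The members varied together from array to array within groups. Each member's deviations from its group means were correlated over the 22 arrays with the mean of the other members, as a description of points that share RNA, labelling and normalization. The median r was 0.39 over the 82 members, with 11 below 0, and 0.00 over the 9798 tested genes that are no members. The closest were Ndufb6 (0.80), Uqcr11 (0.79), Ndufb5 (0.79), Cox6b1 (0.76), Cox6c (0.75) and Atp5o (0.74), small subunits of 4 different complexes. Lowest were Cox7a2l (-0.24), Cyc1 (-0.24) and Ndufa9 (-0.24). By complex the median r was 0.39 in I, 0.42 in II, 0.43 in III, 0.44 in IV and 0.38 in V, and 0.24 in the accessory members.

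**Figure D5:**
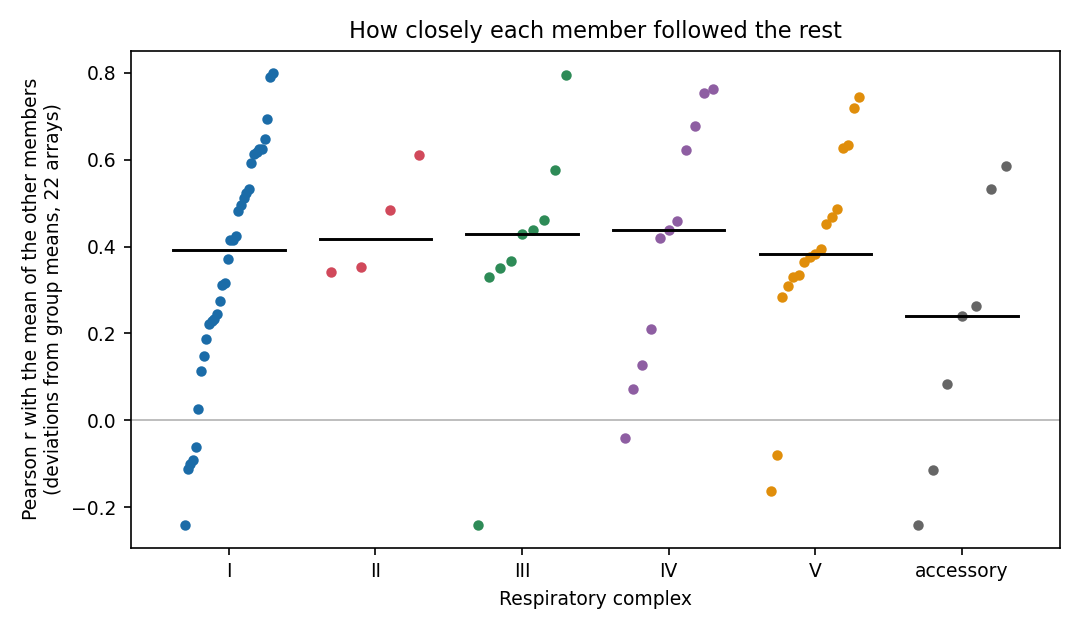
Pearson r (y axis) of each tested member with the mean of the other members, from deviations from group means over 22 arrays, by complex (x axis, bars are medians). The medians of complexes I to V lie between 0.38 and 0.44, and the highest single value is 0.80 (Ndufb6).

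Several of these genes have near-identical processed copies in the genome, which array probes can share. For the 17 members with more than 1 probe set, all probe sets had the same sign in 16 genes for celastrol at 1 day and for DMSO at 4 days against 1 day, but in only 11 to 13 genes in the other 4 comparisons. A further 6 probe sets whose annotation joins a member with other symbols were left out by the rule.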

How the data were processed

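The authors deposited log2 intensities. They had been made with RMA, per the submitters' processing notes, a method that adjusts background, equalizes the distributions of the arrays and combines the probes of a probe set. The sources used here name neither its version nor a genome build. No column belonged to another series (0 columns), and no 2 arrays held near-identical values. For a gene with several single-symbol probe sets, the brightest on average was used, and the level filter needed 3 of 22 arrays. A limma model (version 3.58.1, R 4.3.3) took the 6 groups as means, with moderated tests on 16 residual plus 6.06 prior degrees of freedom, two-sided, adjusted by Benjamini-Hochberg over all 9880 genes. Intervals are at 95%. The small number of arrays limits the precision.

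The members, gene lists and rules were chosen with earlier results of these data known. Named members were those past the threshold in each of 6 comparisons (or else the 3 with the smallest p), the 3 with the smallest F test p in each complex, and a set of isoform genes; other names were chosen after their values were seen. Between arrays of different groups with the same number, the r of their deviations ranged from -0.24 to 0.41 over pairs. For celastrol and DMSO at 6 h, 2 of 4 pairs exceeded 0.1. The numbers were not used to pair the arrays. The alternatives concerned the level filter, the choice of probe set, normalization, centring, trend, robust and weighted fits, only the groups compared, a block, a residual component, and leaving out arrays; leaving out the pair least like their groups was chosen after seeing the data. Simulated data with known changes served to test the code. Plots used Python 3.11.15 and matplotlib 3.10.9.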

Additional observations from a re-analysis of the deposited data

Results flagged for a closer look

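In groups of 4 arrays, 1 array stood apart from the other 3 in 6 of 140 cases examined, and chance gives about 1 in 20. Ndufa13 read 10.78 in DMSO 6 h replicate 1, against 10.95 to 10.96 in the others. Ndufa11 read 12.08 and Uqcrh 12.11 in DMSO 6 h replicate 2, against 11.60 to 11.68 and 11.91 to 11.94. Without that array Uqcrh at 4 days against 6 h was -0.21 and no longer passed. Cyc1 read 11.60 in DMSO 4 days replicate 3, against 11.63 to 11.64, and Cox6a2 9.15 in the same array, against 9.02 at most. The accessory members' median deviation was -0.031 in celastrol 6 h replicate 2, against 0.030 to 0.032 in the others.

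In some named members every celastrol array stood on 1 side of the DMSO mean at 1 time and on the opposite side at another, and limma's test of the difference itself did not pass for any (adjusted p 0.581 to 0.997). For the celastrol effect at 1 day minus 6 h these differences were 0.10 in Atp5g1, -0.18 in Atp5pb, -0.11 in Cox5a, -0.17 in Ndufa4 and 0.27 in Uqcr11. For 4 days minus 6 h it was -0.093 in Uqcrc1. For 4 days minus 1 day they were -0.12 in Atp5g1, 0.11 in Cox6a1, 0.24 in Ndufa4 and 0.34 in Ndufa6. The pattern was seen in 22 of the 82 tested members (all genes, 1503 of 9880) between at least 1 pair of times.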

How the results depend on the processing

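Of 1258 values recomputed under alternatives, 1197 kept their direction and side of the threshold or stayed within the tolerance set for them, and 0 of the called values reversed. No member passed for celastrol minus DMSO at any single time, on average or in the differences between times under any alternative run. Medians near 0 changed sign: the 6 h celastrol median ranged from -0.01 to 0.02, the average over times from -0.02 to 0.00 and DMSO at 4 days minus 6 h from -0.02 to 0.01 when single arrays were left out. The 1 day celastrol median was -0.07 to -0.03 without single arrays and -0.020 without the 2 least typical arrays, an alternative chosen after seeing the data. For DMSO at 4 days minus 6 h the count of 1 (Uqcrh, -0.25) became 0 with no filter on level and with only the groups compared, and 0 in 12 of 22 fits that each left out 1 array (0 to 1). For DMSO at 1 day minus 6 h, 1 member (Cox5a, 0.25 or 0.26, lowest adjusted p 0.0381) passed with the stricter filter (11 arrays), limma-trend, robust eBayes, array weights and the residual component as covariate (all genes, 0.101% to 0.304%), and 0 to 4 did without single arrays. For DMSO at 4 days minus 1 day, 3 passed with array weights (Ndufs3, -0.13, among them; all genes, 1.65%) and 1 with the residual component (1.07%). For celastrol at 4 days minus 6 h, 3 passed with limma-trend (all genes, 2.14%), 3 with array weights (5.18%), 1 with only the groups compared (1.01%), 4 with the residual component (4.36%), 3 without the 2 least typical arrays (3.22%), and 0 to 2 without single arrays. The causes were not tested. With the replicate number as a block the counts were 0 throughout, except 1 for DMSO at 4 days minus 6 h, and the 1 day celastrol median was -0.05; the block changed no call. The main fit did not use the numbers to pair the arrays. Groups of 3 or 4 arrays and intervals of about 0.11 to 0.12 to either side leave shifts of this size in single members below what the test can call, and labels do not tie arrays to scan batches.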
